A study of Arabidopsis thaliana with 53 samples.

Results

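High CO2 and the drought hormone abscisic acid (ABA) both close stomata, and open chromatin was compared between guard cells that had received one or the other signal. The comparison rests on 6 of the 53 samples of the series, pooled by the authors into 2 of its 18 peak lists: 19341 peaks for guard cells at 1000 ppm CO2 and 17891 peaks for guard cells after 4 h of ABA, of 353370 peaks over all lists. A peak is an interval in which Tn5 transposase cut more often than expected, scored by the authors with a −log10 p. Members were chosen by position: 2991 peaks of the 1000 ppm list shared no base with the ABA list, 1886 peaks of the ABA list shared none with the 1000 ppm list, and 14775 pairs of peaks overlapped each other and no further peak (below, mutual or shared pairs), out of 16350 shared peaks at 1000 ppm and 16005 in ABA. Beyond the authors' calling of peaks, no measured value chose which peaks are one-sided.

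The series profiled accessible chromatin in nuclei sorted from Arabidopsis thaliana guard cells, mesophyll and seedling roots, and in whole seedlings. The mesophyll, root and seedling lists used here are those of 50 µM ABA for 4 h and of its control. None of them is labelled as the abf1/2/3/4 mutant. All guard cell nuclei carried histone H2B fused to EGFP as the sorting marker; the labels do not name the promoter that drove it. The 1000 ppm group was 3 samples of wild-type Col-0 plants kept for 4 h in a growth chamber at 1000 ppm CO2, and its reference was 3 samples kept for 4 h at 100 ppm. The ABA group was 3 samples of wild-type Col-0 whose rosettes, on mature plants, were sprayed with 50 µM ABA and taken after 4 h, and its reference was 3 samples sprayed with the ethanol vehicle. The wild-type guard cell groups also include ABA at 24 h, and guard cells of the quadruple mutant abf1/2/3/4, which lacks the ABF1 to ABF4 transcription factors, were profiled after ABA for 4 h and after vehicle. These are therefore separate experiments: one used a chamber set to a CO2 level, the other a spray, and the groups share no reference, so a difference between the lists cannot be told apart from a difference between the experiments. Each guard cell and root list used here pools 3 samples, each mesophyll list 4 and each seedling list 2. No list holds a value per sample, so no test across samples was possible. Intervals below are exact (Clopper-Pearson) 95% intervals that treat peaks as independent and cover counting error only. The number of reads behind each list is unknown.

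As background, ABA binds receptors of the PYR/PYL family, which then hold clade A PP2C phosphatases inactive; this releases SnRK2 kinases such as OST1, which activate anion channels and the ABF transcription factors. The CO2 signal passes in guard cells through carbonic anhydrases and a kinase module of MPK4, MPK12, HT1, CBC1 and CBC2, and ends at the same anion channels. In an open-chromatin assay these pathways are seen only through the regulatory DNA near their genes.

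The guard cell label was checked against its markers. A peak lay within 1500 bp of 9 of 10 guard cell markers at 1000 ppm and of 9 of 10 in ABA, TGG2 being the exception in both, against 3 of 10 in both mesophyll lists, 6 of 10 in roots with ABA and 5 of 10 in control roots, and 4 of 10 in both seedling lists. Of all protein-coding genes, 70.9% had a peak this near at 1000 ppm and 67.9% in ABA. Mesophyll markers also had peaks, 6 of 7 at 1000 ppm and 6 of 7 in ABA, with LHCB1.2 lacking one in both. In bulk samples such as these, fewer nuclei with an open site and less cutting per nucleus cannot be told apart. Peaks at 1000 ppm had a median width of 386 bp and a median −log10 p of 8.65, against 400 bp and 7.23 in ABA, and covered 9.58 Mb against 9.42 Mb.

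Of the 1000 ppm peaks, 15.5% (interval 15.0 to 16.0%) were absent from the ABA list, and of the ABA peaks 10.5% (interval 10.1 to 11.0%) were absent from the 1000 ppm list. Which side had more depended on the length of the lists: when each was held to its 15000 highest-ranked peaks, 12.7% of the 1000 ppm peaks and 14.0% of the ABA peaks were one-sided. Among the 5000 highest-ranked peaks of each list, 18 at 1000 ppm and 65 in ABA had no counterpart anywhere in the other list. The one-sided peaks were weak: 95.9% of those at 1000 ppm and 87.6% of those in ABA lay in the lower 50% of their own list. The median −log10 p of the one-sided peaks at 1000 ppm was 5.10, against 9.56 for shared peaks of that list; in ABA it was 4.90 against 7.61. The median distance to the nearest peak of the other list was 1801 bp at 1000 ppm and 1227.5 bp in ABA, and 17.6% and 27.5% of them had such a peak within 500 bp.

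The sides differed in what the 2 reference lists held. Of the 2991 peaks found only at 1000 ppm, 2344 (78.4%) were present in both the 100 ppm and the vehicle list, 500 in the vehicle list alone, 41 in the 100 ppm list alone and 106 (3.54%) in neither. Of the 1886 peaks found only with ABA, 210 (11.1%) were present in both references, 272 in the vehicle list alone, 79 in the 100 ppm list alone and 1325 (70.3%) in neither. Presence in the references is common to peaks of both lists. Of the peaks only at 1000 ppm, 95.1% were in the vehicle list and 79.7% in the 100 ppm list, below the 99.3% and 95.02% of shared peaks of the 1000 ppm list. Of the peaks only with ABA, 25.6% were in the vehicle list and 15.3% in the 100 ppm list, against 99.4% and 95.3% of shared peaks of the ABA list. The one-sided peaks at 1000 ppm were thus in the references somewhat less often than shared ones, and the one-sided ABA peaks were mostly in neither. Only 261 of all 1000 ppm peaks (1.35%) were absent from the vehicle list, so presence there was nearly fixed in advance for peaks only at 1000 ppm. Of all vehicle peaks, 10.3% were absent at 1000 ppm, which limited how many peaks only with ABA could be in vehicle. The contrast between the sides was therefore largely set in advance.

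**Figure D1:**
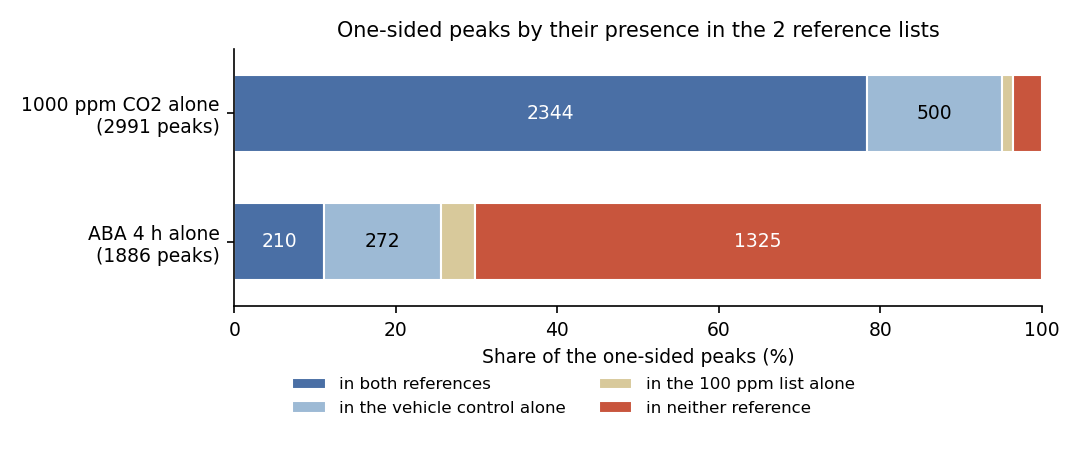
Share of the one-sided peaks (x axis, percent) by presence in the vehicle list and the 100 ppm list, for the 2991 peaks only at 1000 ppm CO2 (upper bar) and the 1886 only with ABA 4 h (lower bar); figures inside the bars are peak counts. The upper bar is mostly peaks held by both references (2344), the lower one mostly peaks held by neither (1325). Of all 1000 ppm peaks, only 1.35% were absent from the vehicle list, so this contrast was largely set in advance.

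The lists that took no part in choosing the peaks showed where these sites were open. Of the peaks only at 1000 ppm, 85.5% (interval 84.1 to 86.7%) were found in vehicle-treated abf1/2/3/4 guard cells and 51.0% in the ABA-treated mutant; of the peaks only with ABA, 13.4% (interval 11.9 to 15.0%) and 37.0% were. At 24 h of ABA, 52.3% (interval 50.5 to 54.1%) of the peaks only at 1000 ppm and 58.3% (interval 56.0 to 60.5%) of the peaks only with ABA were found. Shared peaks from the lower 50% of the same lists were found at ABA 24 h in 94.6% (1000 ppm) and 94.8% (ABA) of cases. They are not matched in rank to the one-sided peaks. At 1000 ppm, 2266 of the 2991 one-sided peaks lay in the lowest of 4 equal parts by rank, against 2570 of these 6803. In ABA, 1171 of 1886 did, against 3302 of 7294. These shared peaks had also been called at ABA 4 h already, so the 24 h shares cannot be compared as like with like. Of the 1325 ABA peaks in neither reference, 740 (55.8%) were present at 24 h, 450 (34.0%) in the ABA-treated mutant and 46 (3.47%) in the vehicle-treated mutant.

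The sets were also sought in the 4 h ABA list and the control list of the other tissues. Peaks only with ABA were found more often in the ABA list than in the control list of each: 70.6% against 55.4% in roots, 43.6% against 29.1% in seedlings and 33.5% against 24.7% in mesophyll. For shared peaks from the lower 50% of the ABA list these shares were 82.6% against 75.2% in roots, 60.5% against 59.7% in seedlings and 50.4% against 54.3% in mesophyll, so part of the root difference is seen for shared peaks too. Peaks only at 1000 ppm were found less often in the ABA list in seedlings (22.9% against 28.1%) and mesophyll (22.7% against 31.0%), and more often in roots (55.1% against 47.7%). For shared peaks from the lower 50% of the 1000 ppm list the shares were 59.2% against 55.4% in seedlings, 47.2% against 47.4% in mesophyll and 84.3% against 74.8% in roots, so the root difference had the same direction and a like size there. The root and mesophyll lists were not matched in length to the guard cell lists, nor the shared peaks in rank to the one-sided ones.

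**Figure D2:**
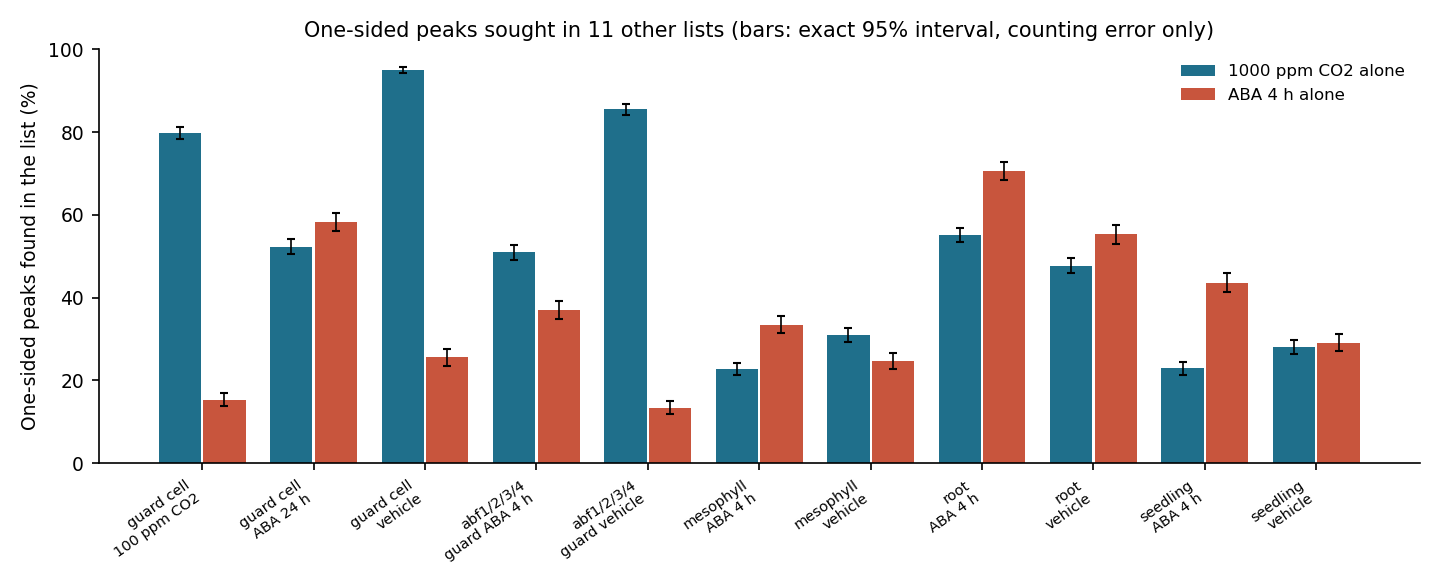
Percent of the one-sided peaks that share at least 1 bp with a peak of each of 11 other lists; for each list the left bar is peaks only at 1000 ppm CO2, the right bar peaks only with ABA 4 h, and error bars are exact 95% intervals for counting error. The left bars reach 95.1% in the guard cell vehicle list, the right bars 25.6% there and 58.3% at ABA 24 h.

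Of the 5 guard cell lists it was set against (100 ppm, ABA 4 h, ABA 24 h, vehicle and ABA-treated abf1/2/3/4), the 1000 ppm list was nearest to the vehicle list of the other experiment, which is also the longest, with 20954 peaks. Only 261 of its peaks (1.35%) were absent from the vehicle list, and 1.28% of their mutual pairs differed by 25 percentile points or more in rank. Against the ABA list, 13.8% of mutual pairs did. The corresponding share was 7.08% between 1000 ppm and 100 ppm, and 14.7% between ABA and vehicle. Gains and losses of each experiment over its own reference were then overlapped. As background, 7.34% of all 1000 ppm peaks were gained over 100 ppm and 8.41% of all ABA peaks over vehicle, while 9.52% of all 100 ppm peaks were lost at 1000 ppm and 20.8% of all vehicle peaks were lost with ABA. In the gaining direction, 85 peaks were gained at 1000 ppm over 100 ppm and also gained in ABA over vehicle. They made up 5.99% of the 1420 CO2 gains and 5.65% of the 1505 ABA gains. These shares have other denominators than the background shares, so they are not compared with them. ABA gains are absent from vehicle, as are only 261 of the 1000 ppm peaks, so the overlap was largely limited in advance. In the losing direction, 708 of the 1809 peaks lost at 1000 ppm (39.1%) overlapped a peak lost with ABA, and 713 of the 4355 peaks lost with ABA (16.4%) overlapped one lost at 1000 ppm. In opposite directions, 495 peaks were gained at 1000 ppm and lost with ABA, which is 34.9% of the CO2 gains and 11.4% of the ABA losses. In the reverse case, 68 of the 1809 peaks lost at 1000 ppm (3.76%) overlapped a peak gained with ABA. Of the 1505 ABA gains, 69 (4.58%) overlapped a peak lost at 1000 ppm. The opposite-direction counts were also shaped in advance, since nearly all 1000 ppm peaks were in vehicle and so could be lost with ABA. CO2 losses and CO2 gains overlapped ABA losses at like rates (39.1% and 34.9%). None of these overlaps is therefore read as a shared or an opposed response.

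The sides also sat differently relative to genes. The summit, the position of highest signal, lay inside a gene for 51.2% (interval 49.4 to 53.0%) of peaks only at 1000 ppm, against 38.8% of the shared peaks of that list. For peaks only with ABA the share was 31.3% (interval 29.2 to 33.4%), against 37.3% of the shared ABA peaks. Because one-sided peaks rank low, the same shares were taken within 4 equal parts of each list by rank. In the third of these parts 56.8% of peaks only at 1000 ppm and 42.0% of shared peaks were inside genes, and in the lowest part 49.8% and 41.4%. In ABA these shares were 31.2% and 39.0% in the third part, and 32.7% and 42.5% in the lowest. Summits over 1 kb from any gene made up 11.9% of peaks only at 1000 ppm and 21.6% of peaks only with ABA, with 11.7% and 11.5% among shared peaks of the same lists.

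The 12 highest-ranked peaks only at 1000 ppm ranked between 1710 and 4128 of 19341. The first, 538 bp from ABCA3, which encodes an ABC transporter, ranked 1710 at 1000 ppm, 1189 at 100 ppm, 1606 in vehicle and 7896 at ABA 24 h. The third lay inside PYL8, also called RCAR3, an ABA receptor, on chromosome 5 from 21561732 to 21562728 (TAIR10); it ranked 2431 at 1000 ppm, 1915 at 100 ppm, 2954 in vehicle and 10045 at ABA 24 h. Both sites therefore ranked high at 1000 ppm, 100 ppm and vehicle, were absent at 4 h of ABA and were present at a lower rank at 24 h. The peak inside AT5G07590 ranked 2082 at 1000 ppm, 2448 at 100 ppm and 1451 in vehicle, and was absent from both wild-type ABA lists and from the ABA-treated mutant.

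Others of these 12 lay at genes with known roles. RPT2, a partner of the phototropin blue-light receptors, held a peak ranked 3526 at 1000 ppm, 3460 at 100 ppm and 3884 in vehicle. GPX3, a glutathione peroxidase that relays hydrogen peroxide signals in ABA-treated guard cells, held one ranked 4128 at 1000 ppm, 2644 at 100 ppm and 5592 in vehicle. The peak 6 bp from LBD38, a nitrogen-responsive transcriptional repressor, ranked 3552 at 1000 ppm, 11443 at 100 ppm and 4515 in vehicle, and was absent at ABA 24 h. The peak 2914 bp from APS1, an ATP sulfurylase, ranked 3319 at 1000 ppm, and the remaining peaks lay inside AT1G27210, AT4G23950, AT2G39980, AT3G02370 and AT3G59660. Of the 12 peaks, 9 had their summit inside the gene, 12 were in the vehicle list, 12 in the 100 ppm list and 10 at ABA 24 h.

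The 12 highest-ranked peaks only with ABA ranked between 423 and 2120 of 17891. The first, on chromosome 5 from 20173178 to 20174086, 2375 bp from AT5G49680, ranked 423 at ABA 4 h and 1081 at ABA 24 h, and was absent at 1000 ppm, 100 ppm and vehicle. The peak 2440 bp from RAP2.10, an AP2/ERF-type transcription factor gene, ranked 1745 at ABA 4 h, 3640 at ABA 24 h and 3302 in the ABA-treated abf1/2/3/4 mutant, and was absent from both references. The peak 1504 bp from PHR1, the photolyase that repairs ultraviolet damage to DNA, ranked 2120 at ABA 4 h and 5755 at 24 h. Of these 12 peaks, all 12 were found at ABA 24 h, 0 in the vehicle list and 0 in the vehicle-treated mutant, 1 at 100 ppm and 7 in the ABA-treated mutant; 2 had their summit inside a gene, AT5G66070 and AT1G23040. The other named neighbours were AT4G23460, AT5G63370, AT2G17680, AT5G37290, AT1G61900 and AT4G09770, and the third-ranked peak lay 3279 bp from the nearest gene and has no name here.

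Shared peaks changed order between the lists. Both orders were taken again within the 14775 mutual pairs and written as percentiles, with 100 for the highest −log10 p. By at least 25 points, 871 pairs (5.90%) ranked higher at 1000 ppm and 1166 (7.89%) ranked higher in ABA. The pairs nearest the limit differed by 25.0085 points inside it and by 24.934 (1000 ppm) and 24.9949 (ABA) points outside it. Large changes were more often towards ABA: 85 pairs at 1000 ppm and 245 in ABA moved by 50 points or more, and 6 and 35 by 75 points or more. Pairs that ranked higher at 1000 ppm had median widths of 514 bp at 1000 ppm and 324 bp in ABA, and pairs that ranked higher in ABA had 331 bp at 1000 ppm and 528 bp in ABA. Summits lay inside genes for 46.6% of the pairs higher at 1000 ppm and 34.0% of the pairs higher in ABA, against 39.5% of all mutual pairs.

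**Figure D3:**
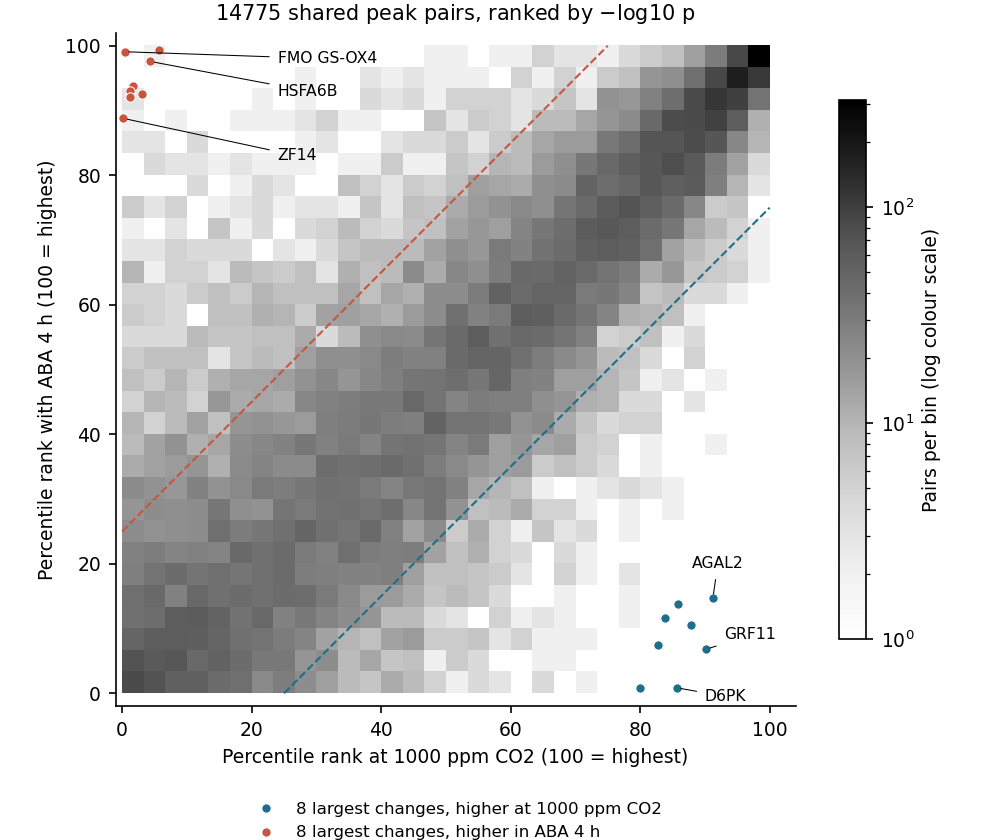
Percentile rank at 1000 ppm CO2 (x axis) and with ABA 4 h (y axis) of the 14775 mutual peak pairs, as counts per bin on a log colour scale; dashed lines mark a change of 25 points, and coloured points are the 8 largest changes in each direction. The 8 pairs in the upper left (FMO GS-OX4, HSFA6B, ZF14 and others) are near the bottom of the order at 1000 ppm and near the top in ABA.

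The 8 largest changes towards ABA lay at the bottom of the 1000 ppm list and near the top of the ABA list. The pair nearest FMO GS-OX4, a flavin monooxygenase of glucosinolate metabolism, ranked 19151 at 1000 ppm and 178 in ABA, a difference of -98.7 points (1000 ppm minus ABA); it ranked 267 at ABA 24 h and was absent from the vehicle list. The pair nearest LEA7, a late-embryogenesis-abundant protective protein, ranked 17102 at 1000 ppm and 131 in ABA, a difference of -93.6 points. The pair nearest HSFA6B, a heat shock transcription factor, ranked 17594 at 1000 ppm and 451 in ABA, a difference of -93.2 points. All 3 sites were therefore low in the 1000 ppm order and among the highest in ABA.

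The next 5 were PTF1, a TCP transcription factor gene, AT4G33467, HAI2, a clade A PP2C, HVA22E, a member of the ABA-inducible HVA22 family, and ZF14, a MATE-type transporter gene, with differences between -92.2 and -88.6 points. All 8 sites were found at ABA 24 h and in the ABA-treated abf1/2/3/4 mutant; 2 were in the vehicle list, 3 at 100 ppm and 1 in the vehicle-treated mutant. None of the 8 summits lay inside a gene (0 of 8); presence in the further lists was judged on the span of the 1000 ppm peak.

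The 8 largest changes towards 1000 ppm spanned ranks 1539 to 3432 at 1000 ppm and 14672 to 17690 in ABA. The pair inside D6PK, a kinase that activates auxin efflux carriers, ranked 2487 at 1000 ppm and 17673 in ABA, a difference of 84.8 points; it ranked 162 at 100 ppm, 2334 in vehicle and 6380 at ABA 24 h. The pair inside GRF11, a 14-3-3 protein, ranked 1712 at 1000 ppm and 16332 in ABA, a difference of 83.4 points. The pair inside COL2, a CONSTANS-like zinc finger gene, ranked 3432 at 1000 ppm and 17690 in ABA, a difference of 79.2 points. It adjoins the one-sided peak at AT3G02370 named above: in the 100 ppm list a single peak, ranked 216, overlapped both, as did a single peak ranked 1659 in the vehicle list. The remaining 5 lay at AT2G41930, AGAL2 (an alpha-galactosidase), PP2C52 (a PP2C-type phosphatase outside clade A), bZIP3 (a bZIP transcription factor) and AT4G13720. All 8 were present in both references and in the vehicle-treated mutant, and 6 at ABA 24 h; 5 of 8 summits were inside a gene.

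The moved pairs were followed through the 12165 pairs that had a counterpart in all 7 guard cell lists, which leaves out pairs absent from any of them, such as that near FMO GS-OX4. The 652 pairs ranked higher at 1000 ppm had median percentiles of 58.9 at 1000 ppm, 64.1 at 100 ppm and 58.0 in vehicle, against 21.7 at ABA 4 h and 38.2 at ABA 24 h. The 889 pairs ranked higher in ABA had median percentiles of 19.9 at 1000 ppm, 19.6 at 100 ppm and 22.8 in vehicle, against 62.3 at ABA 4 h and 48.4 at ABA 24 h. The pairs were chosen for a gap of at least 25 points between 1000 ppm and ABA 4 h, so the medians in those lists were set by the choice. Selection alone can place another list between them, as ABA at 24 h was, so nothing is concluded from its position. On both sides the medians at 100 ppm and in vehicle were near that at 1000 ppm.

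Contrasts that share no sample with the choice of these pairs were then read. Of the pairs higher in ABA 4 h, 87.6% ranked higher at ABA 24 h than in vehicle (median 21.1 points) and 79.9% ranked higher in ABA-treated than in vehicle-treated abf1/2/3/4 guard cells (median 14.2 points). Of the pairs higher at 1000 ppm, 11.7% ranked higher at ABA 24 h than in vehicle (median -17.2 points) and 9.20% ranked higher in the ABA-treated than in the vehicle-treated mutant (median -18.7 points). Over all 12165 pairs these shares were 49.7% and 50.2%. Between 100 ppm and vehicle, 62.6% of the pairs higher at 1000 ppm and 42.5% of the pairs higher in ABA ranked higher at 100 ppm (medians 3.58 and -1.75 points), against 51.6% of all 12165 pairs.

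**Figure D4:**
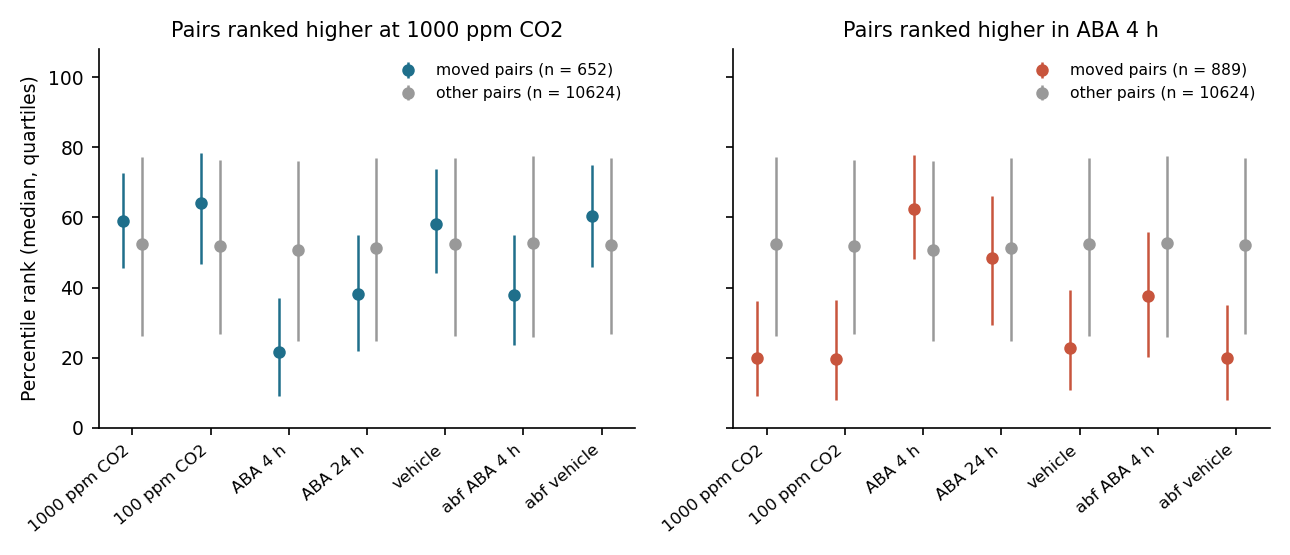
Median percentile rank (points) with quartiles (lines) in the 7 guard cell lists for pairs ranked at least 25 points higher at 1000 ppm CO2 (left, 652 pairs) and at least 25 points higher in ABA 4 h (right, 889 pairs), beside the 10624 other pairs in grey; abf stands for abf1/2/3/4. The coloured points for 1000 ppm, 100 ppm and both vehicle lists lie close together in each panel. Those for ABA 24 h and the ABA-treated mutant are shifted from them towards the ABA 4 h value. The pairs were chosen by the gap between 1000 ppm and ABA 4 h, so these coloured points are apart by choice.

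Genes of the pathways were read against all 27444 protein-coding genes, of which 4284 (15.6%) had a peak only at 1000 ppm, and 2513 (9.16%) had a peak only with ABA, within the gene or 1500 bp of either end. Nearly all listed genes had a peak in either list, unlike genes at large. Among genes with a 1000 ppm peak the share was 22.0%, and among genes with an ABA peak it was 13.5%. A mutual pair ranked at least 25 points higher at 1000 ppm lay at 4.71% of all genes, and one ranked higher in ABA at 5.96%. With each list held to 15000 peaks, the shares of all genes with a one-sided peak were 10.6% (1000 ppm) and 10.5% (ABA). Only the ABA-responsive and CO2 signalling genes were counted at that length. For the other gene lists, a lean to one side was seen only at unequal list lengths. The gene lists are short, so their counts are given as counts. Presence of their peaks in other lists is to be read beside the shares of all one-sided peaks. At 1000 ppm, 78.4% of these were in both references and 52.3% at ABA 24 h. With ABA, 70.3% were in neither reference and 58.3% at ABA 24 h.

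Among the 9 genes of ABA receptors, 5 had a peak only at 1000 ppm (PYL1, PYL2, PYL5, PYL6 and PYL8) and 1 had a peak only with ABA (PYL7). PYL1 had 2 peaks at 1000 ppm, ranked 10357 and 12747, and no peak in ABA. PYL5 had 2, ranked 9539 and 16387, and PYL6 had 1 inside the gene, ranked 10190. The 7 one-sided receptor peaks at 1000 ppm were all present in both references, and 2 were found at ABA 24 h. Shared pairs pointed the same way: 5 receptor genes (PYL2, PYL4, PYL5, PYL6 and PYL8) had a pair ranked at least 25 points higher at 1000 ppm and 0 had one ranked higher in ABA. The pair near PYL6 ranked 5852 at 1000 ppm and 17758 in ABA, a difference of 64.7 points. The pair near PYL5 ranked 500 at 1000 ppm and 5627 in ABA, a difference of 30.0 points.

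The clade A PP2C genes, whose proteins the receptors inhibit, pointed the other way in the shared pairs. Of 9 genes, 4 (ABI2, HAB1, HAI1 and HAI2) had a pair ranked at least 25 points higher in ABA and 0 had one higher at 1000 ppm. At HAI1, 3 pairs moved; the largest ranked 16211 at 1000 ppm and 614 in ABA, a difference of -88.1 points. At HAI2 the pair 123 bp from the gene ranked 14005 at 1000 ppm and 752 in ABA. One-sided peaks were mixed: HAB1, HAI1 and HAI2 had one only at 1000 ppm, and HAB1 and HAI3 had one only with ABA. The one at HAI3, from 12609955 to 12610451 on chromosome 2, ranked 9283 at ABA 4 h and 10075 at ABA 24 h and was in neither reference.

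Among the SnRK2 kinase and ABF transcription factor genes, 3 of 8 had a peak only with ABA (ABF3, ABF4 and ABI5) and 0 had one only at 1000 ppm. The peak near ABF4 ranked 8909, that near ABF3 15961 and that near ABI5 17170 of 17891. The peaks near ABF3 and ABI5 were thus near the bottom of the list, with −log10 p of 4.47 and 4.03. All 3 were absent from both references and from the mutant lists, and all 3 were found at ABA 24 h. ABF1 and ABF2 each had a pair ranked higher in ABA, by -35.5 and -29.5 points (1000 ppm minus ABA). The kinase genes OST1, SNRK2.2 and SNRK2.3 had no one-sided peak and no pair that moved.

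Of 20 ABA-responsive genes, 5 had a peak only with ABA (RD29A, RD29B, COR15A, HB7 and HSFA6B) and 2 had a peak only at 1000 ppm (HB7 and NCED3). RD29A and RD29B, neighbouring genes for stress-protective proteins, share a peak only with ABA on chromosome 5 from 21239088 to 21239810, ranked 3858. A second one, inside RD29A, ranked 4176. The shared pair that overlaps one end of RD29A ranked 6061 at 1000 ppm and 80 in ABA, a difference of -35.6 points. HB7, a homeodomain factor of the drought response, had peaks only with ABA ranked 3410 and 16386, and one ranked 14662 only at 1000 ppm. RD22 and RD26 had shared pairs ranked higher in ABA, with differences of -60.1 and -33.6 points. Of the 6 one-sided ABA peaks at these genes, 0 were in either reference and 5 were found at ABA 24 h. NCED3, a rate-limiting enzyme of ABA synthesis, had 2 peaks only at 1000 ppm, ranked 16168 and 17840 of 19341.

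The CO2 signalling genes had one-sided peaks on both sides. Of 13 genes, 4 had one only at 1000 ppm (CBC1, CA1, CA4 and RHC1) and 4 had one only with ABA (CBC1, MPK4, CA1 and CA4). CA1, a carbonic anhydrase, had a peak only at 1000 ppm ranked 8513, and it ranked 4104 at 100 ppm and 9894 in vehicle. The ABA peak at CA1 and its neighbour CBC1 is a single one, ranked 17257 at ABA 4 h and 1819 at ABA 24 h. No ABA-only peak near these genes was left in lists held to 15000 peaks (0 of 13 genes), where 7 of 13 had one only at 1000 ppm. The shares over all genes at that length were 10.5% with ABA and 10.6% at 1000 ppm. Shared pairs leaned to 1000 ppm: HT1, CBC1, CBC2, RHC1, a MATE-type transporter proposed to sense bicarbonate, and EPF2, a peptide that represses stomatal development, had a pair ranked higher there, and CA1 had one ranked higher in ABA. At CBC2, 3 pairs moved, by 43.3, 42.0 and 25.8 points.

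Guard cell ion transport genes had more one-sided peaks at 1000 ppm: 7 of 15 (KAT1, KAT2, AKT1, GORK, AHA1, AHA2 and ABCB14), against 1 of 15 with ABA (AHA2). KAT1, KAT2 and AKT1 are inward potassium channels, GORK is the outward one, AHA1 and AHA2 are plasma membrane proton pumps and ABCB14 imports malate. The highest-ranked of these peaks lay in AHA1, at 6914 at 1000 ppm, 10084 at 100 ppm, 6948 in vehicle and 7222 at ABA 24 h, and was absent at ABA 4 h. The peak at KAT1 ranked 16614 at 1000 ppm and 2420 at 100 ppm, and was absent from vehicle. Those at AKT1, GORK and ABCB14 ranked 17068, 17387 and 17798 of 19341 at 1000 ppm, near the bottom of the list. The peaks at GORK and ABCB14 were absent at 100 ppm. Of the 7 transport peaks only at 1000 ppm, 5 were found at ABA 24 h. KAT1 had 2 shared pairs ranked higher at 1000 ppm, by 26.1 and 31.6 points, and KAT2 had 1, by 31.5 points. AHA1 had a pair higher in each list.

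Of 9 guard cell factor genes, 4 had a peak only at 1000 ppm (MYB60, TGG1, FBH4 and FBH1) and 0 had one only with ABA. Of these 4 peaks, 2 were found at ABA 24 h. MYB60, a transcription factor needed for stomatal opening, had its one-sided peak inside the gene, ranked 8561 at 1000 ppm, 2715 at 100 ppm and 7573 in vehicle. TGG1, a myrosinase abundant in guard cells, had one ranked 9225 at 1000 ppm and 6478 at 100 ppm. AKS1, a bHLH activator of KAT1, went the other way, with a pair ranked 9334 at 1000 ppm and 648 in ABA, a difference of -52.4 points. The blue-light genes had one-sided peaks in 2 of 5 genes at 1000 ppm (BLUS1, a kinase acted on by phototropins, and the photoreceptor gene CRY1) and in 0 of 5 with ABA. Both peaks were found at ABA 24 h. That at BLUS1 ranked 14909 at 1000 ppm and 17640 at ABA 24 h, and that at CRY1 13437 and 10636. PHOT2, BLUS1 and CRY1 also had pairs ranked higher at 1000 ppm, by 31.1, 31.8 and 39.6 points.

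Mesophyll marker genes moved to the same side as these. Of 7, 4 had a peak only at 1000 ppm (LHCB1.3, LHCB2.1, LHCA1 and RCA) and 0 had one only with ABA, and LHCB2.1, a light-harvesting protein gene, had a pair ranked higher at 1000 ppm by 31.0 points. The 4 peaks ranked 18722, 10366, 18504 and 18099 of 19341. RBCS1A and LHCB1.1 had no one-sided peak. The part of mesophyll nuclei in the counts for receptors, channels, guard cell factors and blue-light genes was not tested. The circadian clock genes, compared because the sampling times of the 2 experiments are not given in the labels, had a one-sided peak in 1 of 10 genes at 1000 ppm (ELF3) and 1 of 10 with ABA (PRR5). TOC1 had a pair ranked 11966 at 1000 ppm and 1833 in ABA, a difference of -61.0 points.

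**Figure D5:**
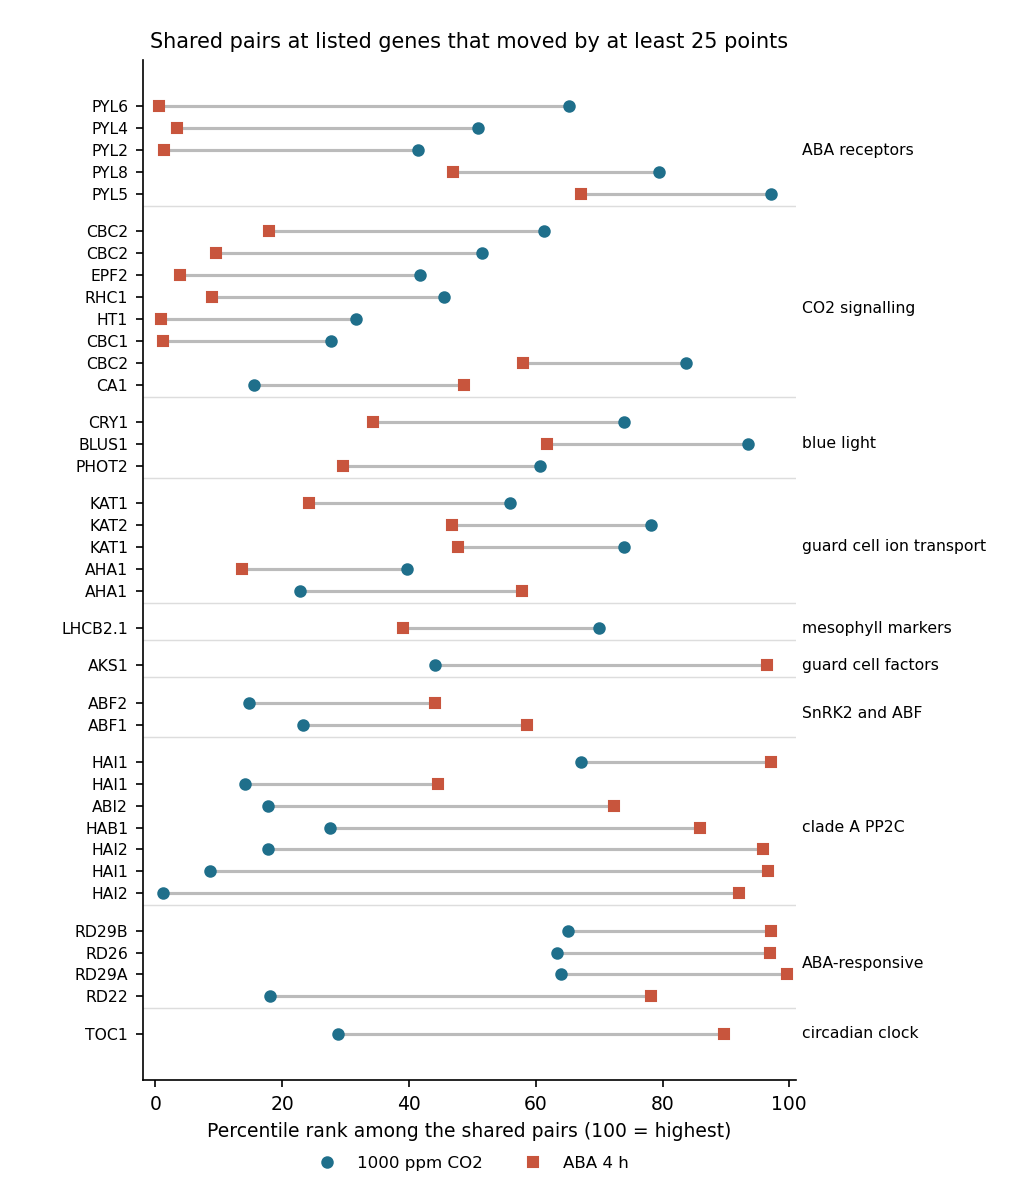
Percentile rank (x axis, 100 is highest) at 1000 ppm CO2 (circles) and with ABA 4 h (squares) of the 37 shared pairs at listed genes that moved by at least 25 points, grouped by gene list (right margin); a gene with several pairs has several lines. Circles lie to the right at the receptor and blue-light genes (20 pairs in all rank higher at 1000 ppm), and squares at the clade A PP2C, ABF and ABA-responsive genes (17 pairs in all rank higher in ABA).

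Over the 10 gene lists, 36 distinct peaks were found only at 1000 ppm, of which 29 were in both references and 0 in neither. With ABA there were 17, of which 3 were in both references and 13 in neither, and 12 of these 17 were found at ABA 24 h. Of all peaks only at 1000 ppm, 78.4% were in both references and 3.54% in neither. Of all peaks only with ABA, 11.1% were in both and 70.3% in neither, and 58.3% were found at ABA 24 h. The counts are therefore not read as particular to the listed genes.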

How the data were processed

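Each peak list is the authors' deposited narrowPeak-style table, 1 per group, pooled over its samples. The submitters' processing notes name Trim Galore 0.6.5, cutadapt, FastQC, SAMtools, bedtools 2.30, Picard, Genrich and deepTools 3.5.0, among others, for the series, with no role or order, and the build TAIR10; the aligner, and how samples were pooled, are not given in the sources used here. The deposited area score (column 7) starts at about 200.0 in each list, and the deposited −log10 p (column 8) gave the ranks; no q-values are filled in. There are 0 columns of per-sample values, so replicates could not be compared, and depth is unknown. Of 18 lists, 13 were used; 5 root lists were not needed.

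Python 3.11.15, numpy 2.4.6, pandas 2.3.3 and scipy 1.17.1 were used. A peak counted as shared when at least 1 bp overlapped the other list. Mutual pairs are 1-to-1 overlaps, so peaks that overlap several peaks of the other list are left out of the rank comparison; the pairs were ranked again among themselves. Summits were tied to protein-coding genes in a RefSeq table of TAIR10.1, which gives neither strand nor exons; its fit to the peaks was checked by moving the summits by 5 kb, after which 13.9% rather than 51.8% (1000 ppm) and 14.0% rather than 49.4% (ABA) lay within 150 bp of a gene end. All 105 list genes were found; 1 further gene is not reported here. The overlap and ranking steps were checked on simulated lists.

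Genes named are those at the 12 highest-ranked one-sided peaks of each side, the 8 largest rank changes in each direction among pairs in the upper 50% of at least 1 order, and every listed gene with a one-sided peak; listed genes with a moved pair are named too, chosen after their values were seen; a summit over 3000 bp from any gene has no name. The members and gene lists were chosen with earlier results of these data known. No sequences are shown, since no genome was used here.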

Additional observations from a re-analysis of the deposited data

How the results depend on the processing

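Of 38 alternatives, 18 left a result within its counting interval or near its count, and 20 moved it. Requiring 50% overlap of the shorter peak moved nothing. With 15000 peaks per list, the one-sided share was 12.7% at 1000 ppm and 14.0% in ABA; with −log10 p of at least 6 it was 25.4% and 8.35%; for the 5000 highest-ranked peaks it was 0.36% and 1.3%. Peaks only at 1000 ppm in both references were 73.5% (15000 peaks) and 86.5% (−log10 p of at least 6), and ABA peaks in neither reference 75.0% and 63.0%. Presence at ABA 24 h was 45.2% and 68.2% for peaks only at 1000 ppm, and 52.9% and 73.1% for peaks only with ABA. The −log10 p limit was applied to both lists, so it removes weak counterparts as well as weak members.

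Counts of moved pairs stayed between 747 and 874 (higher at 1000 ppm) and between 968 and 1171 (higher in ABA) under the area score, 50% overlap and 15000 peaks. ABA-responsive genes with a peak only with ABA numbered 8 within 3000 bp; those with a peak only at 1000 ppm numbered 1 within 500 bp and 1 with 15000 peaks. CO2 signalling genes with a peak only at 1000 ppm numbered 7 with 15000 peaks; those with a peak only with ABA numbered 2 within 500 bp and 0 with 15000 peaks. Beyond the lengths and limits themselves, the cause of these shifts was not tested. The share of all genes with a peak on the 1000 ppm and the ABA side was 22.2% and 13.5% within 3000 bp, 11.6% and 5.89% within 500 bp, and 10.6% and 10.5% with 15000 peaks.

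No paired analysis was possible because each list pools its samples, and leaving out each replicate in turn was not run for the same reason. Unknown depth limits every statement that a peak is absent.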

Other observations

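Of the 85 sites gained in both experiments over their own references, the highest-ranked in ABA were nearest DUO3, a pollen transcription factor gene (rank 9363 at 1000 ppm and 720 in ABA), AT4G33467 (18765 and 1282), HVA22E (18068 and 1341), HAI2 (18786 and 1427), ZF14 (19247 and 2000) and AT3G49930 (15564 and 2177). All 6 ranked far lower at 1000 ppm than in ABA; they were picked by their rank in ABA, after values were seen.

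Some genes held several one-sided peaks: 437 genes had at least 2 only at 1000 ppm and 269 had at least 2 only with ABA. NPC6, a phospholipase C gene, had 5 at 1000 ppm, and AT1G27210, GPRI1 (the GLK1 factor of chloroplast development) and LHW (a bHLH factor) had 4 each. With ABA, FMO GS-OX4 had 4. Of all genes, 329 had a peak on both sides, which is 7.68% of those with a peak only at 1000 ppm and 13.1% of those with a peak only with ABA.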
